A study of Homo sapiens with 16 samples.

Results

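The sterol and fatty acid synthesis genes are 31 genes chosen by symbol: the enzymes that build cholesterol and fatty acids, the SREBP regulators that control them, and a sterol carrier. All 31 were listed in the tables, among 28502 gene symbols in all, and all 31 had a mean of at least 1 FPKM, the level above which a locus was tested (11845 loci). FPKM is a fragment count scaled by transcript length and library size. RNA was measured in HCT116 cells, a long-established line from a human colorectal carcinoma, as poly(A) RNA-seq. Cells were transfected with NC (the control, whose letters the labels do not spell out), with siRNA against EZH1 (siEZH1) or with siRNA against UXT (siUXT), and each was treated with PBS or with TNF, giving 6 conditions with 1 library each. The labels give no siRNA sequence, no dose or time of TNF and no time after transfection. The 10 chromatin samples of the series were not analysed here.

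Cholesterol is built from acetyl-CoA in a long chain of steps: the mevalonate arm makes isoprenoid units, and the squalene arm folds and trims them into sterols. Fatty acids are built from the same acetyl-CoA by carboxylation, chain assembly, elongation and desaturation. Most of these genes are transcribed under the SREBP factors, membrane proteins that the escort protein SCAP carries from the endoplasmic reticulum to the Golgi when sterols are scarce, and that the INSIG proteins hold back when sterols are plentiful. EZH1 methylates lysine 27 of histone H3 within a Polycomb repressive complex, and UXT is a small prefoldin-like protein. The question set by the design is how the knockdowns and TNF, the cytokine that activates NF-kB, change transcription.

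The libraries were first checked against their labels. UXT was at 27.7 and 24.6 FPKM in the siUXT libraries, against 62.2 and 59.6 in NC, while EZH1 was at 4.05 and 4.14 in the siEZH1 libraries against 5.45 and 5.12 in NC, so the EZH1 transcript was lower by a smaller factor (0.742 of NC under PBS and 0.809 under TNF). NFKBIA, which NF-kB induces, was 14.1, 10.9 and 11.4 times its PBS level under TNF in NC, siEZH1 and siUXT. Of 7 colon epithelial markers 6 were at 1 FPKM or more and VIL1 was at or near 0, while leukocyte, endothelial and hepatocyte markers each summed to under 1 FPKM in every library, with PTPRC, CD3E, CD14, APOB and TTR at 0. Adipocyte markers, from another cell type rich in these enzymes, summed to 1.87 to 4.08 FPKM, almost all of it CIDEC, and LEP was at 0. The fibroblast markers summed to 5.88 to 8.64 FPKM, nearly all of it COL1A1, and DCN was listed at 0 throughout. The siUXT PBS library stood apart from the rest: 16.4% of all tested loci were at least 1.5-fold lower in it than in NC PBS and 4.11% higher, against 3.06% and 3.12% for siUXT TNF and NC TNF. Calls by limma are therefore given with and without it. Values of a single pair that contains it have no version without it. Low FPKM values put the relative depth of the libraries at 0.719 to 1.02 of NC PBS, and the read number itself is unknown. NC TNF and siEZH1 TNF were at 0.719 and 0.720, and the other libraries at 0.949 to 1.02. In NC and siEZH1 depth thus differed along with TNF, and its part in the TNF differences was not tested. With 1 library per condition, the spread in every test below comes from disagreement between pairs of conditions and not between repeated cultures. Limma draws it towards the spread typical of other loci. Whether 2 libraries of a transfection share a culture is left unsaid in the labels. In bulk RNA, fewer cells of a kind and less RNA per cell cannot be told apart.

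Levels differed widely along the pathways. SCD, the desaturase that makes oleate and palmitoleate, was the most abundant of the genes at a mean of 243 FPKM over the 6 libraries, followed by FASN, the fatty acid synthase, at 131 and ACLY, which cleaves citrate to acetyl-CoA, at 110. FDFT1 (squalene synthase) and FDPS (farnesyl diphosphate synthase) led the sterol genes at 98.8 and 92.8 FPKM. The lowest were INSIG2 at 8.61 and LPIN1, a phosphatidate phosphatase of triglyceride synthesis, at 3.80 FPKM. SREBF2 and SREBF1, which encode the SREBP factors, were at means of 47.0 and 39.7 FPKM, and their ranges over the libraries overlapped (37.2 to 55.9 and 36.4 to 48.1). The highest value of a gene was under 2 times its lowest for 25 of the 31 genes and under 1.5 times for 14. SC5D had the widest range, 3.19 to 19.2 FPKM. FPKM is per length, so these levels can be set against each other, but neighbours in the order mostly overlapped. The values of CYP51A1 and TM7SF2 were identical to those listed for LRRD1 and VPS51, so they cannot be assigned to 1 gene each.

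**Figure D1:**
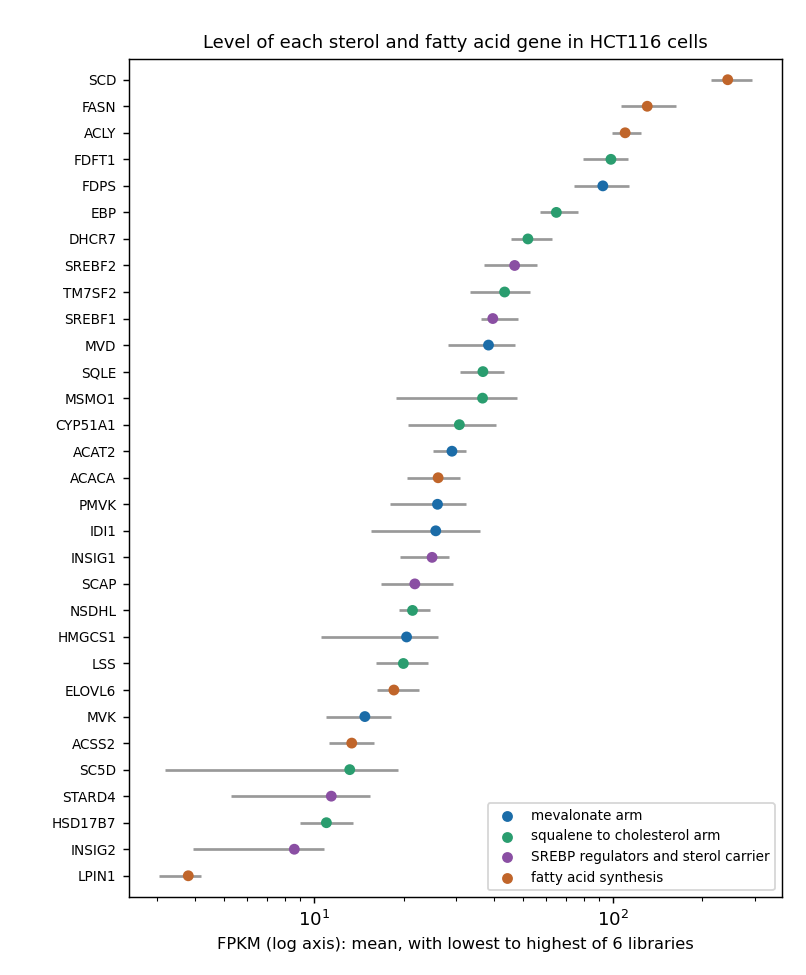
Mean FPKM of each of the 31 genes (log axis) with a line from the lowest to the highest of the 6 libraries, coloured by role. SCD lies at the top at 243 FPKM and LPIN1 at the bottom at 3.80, and the longest line is that of SC5D.

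Promoter windows, from 250 bases before to 50 bases after a transcription start, were listed in a RefSeq table of build GRCh38.p14 for 27 of the 31 genes. They are shown because SREBP factors bind sterol regulatory elements, often beside a CCAAT box, and because the genes below differ in how they behaved. SREBF2 was the only 1 of the 27 with the element TCACNCCAC on either strand (3.70%, against 1.54% of the 8973 promoter-matched genes tested here). The CCAAT letters on either strand were in 20 of 27 (74.1%, against 43.3% of those genes), and the E-box CANNTG in 18 of 27 (66.7%, against 66.9%). A match is a description of these letters and not a binding site. Only these exact letters were searched, so variants of the sterol element were not counted, and its absence here is not the absence of a site. HMGCS1 and SC5D had 2 promoters listed each, of which 1 is printed. The 250 bases before the start are printed 5′ to 3′ on the gene's strand for SREBF2 (chr22:41832855-41833104, plus strand), HMGCS1 (chr5:43313413-43313662, minus strand), SC5D (chr11:121292521-121292770, plus strand) and FDPS (chr1:155308616-155308865, plus strand), with the sterol element and CCAAT (or its reverse complement ATTGG) in capitals.
SREBF2: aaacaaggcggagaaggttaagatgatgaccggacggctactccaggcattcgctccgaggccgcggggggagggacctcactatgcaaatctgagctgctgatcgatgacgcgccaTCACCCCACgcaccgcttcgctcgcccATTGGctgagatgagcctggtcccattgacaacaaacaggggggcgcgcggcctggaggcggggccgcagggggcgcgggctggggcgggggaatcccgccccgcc
HMGCS1: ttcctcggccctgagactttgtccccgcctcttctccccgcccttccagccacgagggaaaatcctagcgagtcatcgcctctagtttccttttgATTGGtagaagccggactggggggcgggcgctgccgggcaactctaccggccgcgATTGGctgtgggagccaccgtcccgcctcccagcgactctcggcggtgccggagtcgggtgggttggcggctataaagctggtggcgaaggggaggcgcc
SC5D: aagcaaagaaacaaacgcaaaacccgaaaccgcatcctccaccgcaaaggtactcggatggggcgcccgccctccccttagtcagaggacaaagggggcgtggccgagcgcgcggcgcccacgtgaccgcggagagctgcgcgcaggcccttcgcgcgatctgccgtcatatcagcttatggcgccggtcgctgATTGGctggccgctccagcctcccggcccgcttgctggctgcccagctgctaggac
FDPS: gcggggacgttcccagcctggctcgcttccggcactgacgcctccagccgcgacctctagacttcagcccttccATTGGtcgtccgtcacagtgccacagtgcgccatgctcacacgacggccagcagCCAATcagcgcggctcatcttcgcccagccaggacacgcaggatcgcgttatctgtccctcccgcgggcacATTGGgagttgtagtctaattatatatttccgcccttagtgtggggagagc
The SREBF2 window holds the sterol element 133 to 125 bases before the start and a CCAAT box, on the opposite strand, 106 to 102 bases before it. HMGCS1 has 2 CCAAT boxes here, SC5D 1 and FDPS 3. HMGCS1 and SC5D were among the genes lowest in siUXT PBS and FDPS was the 1 furthest above NC there. All 3 hold the CCAAT letters, as do 20 of the 27. INSIG2 and CYP51A1, at 0.463 and 0.705 of NC in siUXT PBS, lack these letters. HMGCS1, IDI1, MSMO1, SC5D and STARD4, which like INSIG2 were at least 1.5-fold lower there, hold them. Whether the letters go with being low there was not tested.

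TNF did not move these genes past the test. In limma's additive model over all 6 libraries, 0 of 31 were called (threshold 0.05 after Benjamini-Hochberg adjustment), against 0.414% of all loci, and 0 had an unadjusted p under 0.05, against 3.96%. Their smallest adjusted p in limma was 0.999, and their median log2 difference (TNF minus PBS, on the log2(FPKM + 1) scale used for all differences) was 0.03, against 0.01 for all loci. None was at least 25% higher in every transfection (1.80% of all loci) and none at least 20% lower, the same ratio downward (0.439%). These limits are on the FPKM + 1 scale. In the NC and siEZH1 pairs 0 of 31 were at least 1.5-fold apart, against 5.38% and 4.58% of all loci. INSIG2 alone was higher in all 3 transfections (3.23% of the members, against 9.08% of all loci), and FDFT1, SCD and ACLY were lower in all 3 (9.68%, against 11.1%). INSIG2 differed by 0.08, 0.11 and 1.26 in NC, siEZH1 and siUXT, and FDFT1 by -0.09, -0.03 and -0.24. SCD, the most abundant, stood at 222 FPKM without and 221 with TNF in NC, at 293 and 287 in siEZH1 and at 221 and 214 in siUXT.

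In the siUXT pair 8 of 31 were at least 1.5-fold apart, against 20.4% of all loci. Most loci past that limit were higher under TNF: 1993 of 11845 were higher and 428 lower, so the upward lean is that of the whole pair. Of these 7 were higher under TNF (HMGCS1, IDI1, CYP51A1, MSMO1, SC5D, INSIG2 and STARD4), and these same genes were low in the siUXT PBS library that the pair is measured from. MVK, mevalonate kinase, was the 1 that was lower: it was at 18.2 FPKM in siUXT PBS and 10.96 in siUXT TNF, against 15.4 and 15.8 in NC PBS and NC TNF and 15.3 and 13.4 in siEZH1 PBS and siEZH1 TNF.

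FASN, which joins malonyl units into palmitate, was higher under TNF outside siUXT. NC cells gave 122 FPKM without and 163 with TNF, siEZH1 cells 107 and 137, and siUXT cells 136 and 119. Higher values under TNF were thus seen in 2 of 3 transfections, with differences of 0.41, 0.36 and -0.20. Over all 6 libraries the mean difference was 0.19 with a standard error of 0.16. Without the siUXT PBS library it was 0.38 with a standard error of 0.06, and FASN was then the only member called (limma, Benjamini-Hochberg adjusted p = 0.031), where 2.47% of all loci were called higher. SREBF2 had a like order, with 45.4 FPKM without and 55.9 with TNF in NC and 37.2 and 48.1 in siEZH1, but 54.1 and 41.5 in siUXT, and was not called without that library either (limma, Benjamini-Hochberg adjusted p = 0.068). Leaving out siUXT PBS takes the whole siUXT pair out of the TNF difference, because siUXT TNF then has no PBS partner. For FASN, 0.38 thus averages 0.41 and 0.36, without the -0.20 of siUXT. Its standard error of 0.06 combines the match of those 2 differences, on 1 residual degree of freedom, with the spread typical of other loci. SCD and ACLY also had standard errors of 0.06 in that fit. Leaving out siUXT TNF instead gave the same 0.38 for FASN. That the TNF difference of FASN or SREBF2 depends on the transfection was not tested, since single pairs have no replicate.

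**Figure D2:**
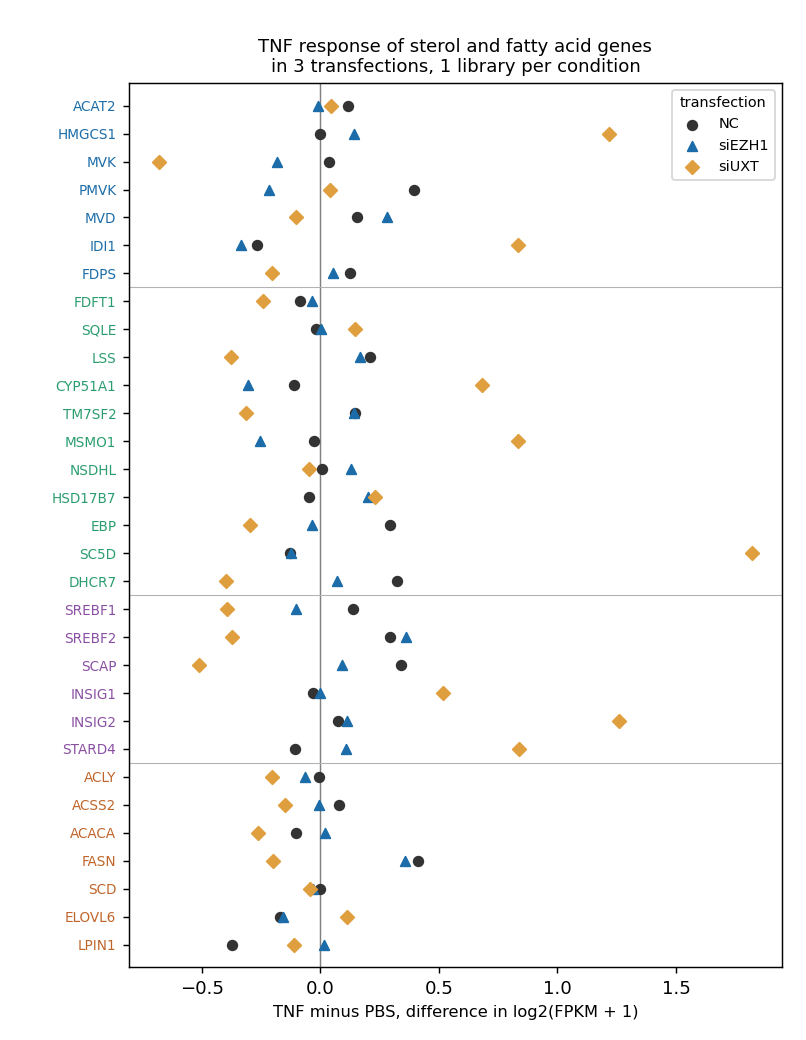
Difference in log2(FPKM + 1) between TNF and PBS (horizontal axis) for each of the 31 genes, with 1 point per transfection and gene names coloured by role. NC and siEZH1 points lie between -0.37 (LPIN1) and 0.41 (FASN), while siUXT points lie up to 1.82 for SC5D and down to -0.68 for MVK.

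After siEZH1 the genes differed from NC in both directions: IDI1, FDFT1, SC5D, ACACA and SCD were at least 25% higher than in NC under both treatments, while MVD, PMVK, LSS, TM7SF2, SREBF2, SCAP and FASN were lower under both by varying amounts. The sizes were modest, with 0 of 31 at least 1.5-fold apart under PBS and 1 of 31 (PMVK, lower) under TNF, against 7.28% and 9.76% of all loci. Those 5 genes are 5 of 31 (16.1%, against 7.40% of all loci), and MVD and TM7SF2, at least 20% lower under both, are 2 of 31 (6.45%, against 11.3%). In all, 16 were higher under both (51.6%, against 40.7% of all loci) and 13 lower under both (41.9%, against 37.7%). The median of the 31 was 0.11 under PBS and 0.15 under TNF, against 0.00 and 0.02 for all loci.

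In the mevalonate arm, IDI1, the isopentenyl diphosphate isomerase, had the largest positive difference. With PBS and then TNF, it was at 24.8 and 20.4 FPKM in NC, 36.0 and 28.3 in siEZH1, and 15.6 and 28.6 in siUXT (pairs of values below keep that order), so each siEZH1 value lay above its matched NC value by 0.52 and 0.45. HMGCS1, the cytosolic HMG-CoA synthase, was at 18.6 in both NC libraries, 23.2 and 25.7 in siEZH1, and 10.6 and 26.02 in siUXT. Both siEZH1 values of HMGCS1 lay above both NC values. ACAT2, which condenses acetyl-CoA at the head of the arm, was 1.29 and 1.18 times its NC level under PBS and TNF, and FDPS was above NC by 0.31 and 0.24 on the log2 scale.

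The decarboxylase and 1 of the 2 kinases of the same arm went the other way. MVD, mevalonate diphosphate decarboxylase, was at 42.3 and 47.3 FPKM in NC, 28.1 and 34.4 in siEZH1, and 40.7 and 37.8 in siUXT. Its siEZH1 values were the lowest of the 6, with differences of -0.57 and -0.45. PMVK, phosphomevalonate kinase, was at 24.3 and 32.2 in NC, 21.1 and 18.0 in siEZH1, and 29.6 and 30.5 in siUXT, a difference of -0.19 under PBS but -0.80 under TNF. MVK, the other kinase, was close to NC under PBS (0.994 of its NC level) and at 0.846 under TNF. Adjacent steps of 1 arm thus differed in sign.

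From squalene to cholesterol, FDFT1 was at 84.7 and 79.7 FPKM in NC, 111 and 109 in siEZH1, and 113 and 95.4 in siUXT. All 4 knockdown libraries lay above both NC libraries. SQLE, the squalene epoxidase, was at 35.0 and 34.6 in NC, 43.2 in both siEZH1 libraries, and 30.8 and 34.2 in siUXT. SC5D, the sterol C5 desaturase, was at 13.4 and 12.2 in NC and 19.2 and 17.5 in siEZH1, a difference of 0.49 under either treatment.

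CYP51A1, the lanosterol demethylase, was at 29.2 and 27.04 FPKM in NC and 40.9 and 32.9 in siEZH1. MSMO1, which removes the C4 methyl groups, was at 39.9 and 39.1 in NC and 48.0 and 40.05 in siEZH1, a difference of 0.26 and 0.03. Of this arm, LSS, TM7SF2, HSD17B7, EBP and DHCR7 were lower in both siEZH1 libraries than in either NC library. LSS, which closes the sterol ring, was at 0.818 and 0.794 of NC. The TM7SF2 locus, a sterol C14 reductase, was at 45.3 and 50.3 in NC, 33.4 and 37.0 in siEZH1, and 52.9 and 42.4 in siUXT. NSDHL, HSD17B7, EBP and DHCR7, which act on the late sterol intermediates, had differences between -0.36 and 0.17 in the 2 pairs.

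Among the regulators, SCAP was at 20.4 and 26.1 FPKM in NC and at 16.8 and 18.0 in siEZH1. SREBF2 was 0.818 and 0.860 of NC. SREBF1 was at 36.5 and 40.3 in NC, 39.9 and 37.2 in siEZH1, and 48.1 and 36.4 in siUXT, with opposite signs under PBS and TNF. INSIG1, at 25.8 and 25.3 in NC and 25.3 in both siEZH1 libraries, did not differ by more than 0.03 on the log2 scale, and INSIG2, at 8.50 and 9.01 in NC and 9.27 and 10.1 in siEZH1, by 0.15 at most. STARD4, a carrier that moves cholesterol between membranes, was at 12.2 and 11.3 in NC and 14.3 and 15.5 in siEZH1.

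In fatty acid synthesis, SCD was at 222 and 221 FPKM in NC, 293 and 287 in siEZH1, and 221 and 214 in siUXT. The siEZH1 values stood above all 4 others, which lay between 214 and 222. ACACA, the acetyl-CoA carboxylase that commits carbon to fatty acids, was at 22.1 and 20.5 in NC, 28.5 and 28.9 in siEZH1, and 30.9 and 25.6 in siUXT, with both knockdowns above both NC values. ELOVL6, an elongase of saturated fatty acids, was 1.22 and 1.23 times NC and ACLY 1.18 and 1.13 times. FASN (0.875 and 0.843) and ACSS2, which makes acetyl-CoA from acetate (0.835 and 0.783), were lower, and LPIN1 was 0.985 and 1.39 times NC.

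Over all 6 libraries limma called 0 of 31 for siEZH1 (0.0169% of all loci were called). At an unadjusted p under 0.05 there were 3 of 31, SCD (0.028), MVD (0.029) and FDFT1 (0.036), where 8.21% of all loci passed that limit. The smallest Benjamini-Hochberg adjusted p in limma was 0.60. The call turned on the siUXT libraries. Without siUXT PBS limma called 11 of 31 higher (35.5%, against 11.8% of all loci) and 7 lower (22.6%, against 14.7%). The higher ones were HMGCS1, IDI1, FDPS, ACAT2, FDFT1, SQLE, CYP51A1, SC5D, SCD, ACACA and ELOVL6, and the lower ones PMVK, MVD, LSS, TM7SF2, SREBF2, SCAP and FASN. Without the siUXT TNF library the same 18 were called (11.3% of all loci were then called higher and 14.8% lower). In both fits EPCAM, an epithelial marker, was also called higher after siEZH1 and KRT8, KRT18 and KRT19 lower. EPCAM was at 154 and 129 FPKM against 119.7 and 102 in NC, and KRT8 at 709 and 788 against 903 and 1074. The part of these in the calls was not tested. In that fit without siUXT PBS, SCD rose by 0.39 with a standard error of 0.06 (limma, Benjamini-Hochberg adjusted p = 0.010), IDI1 by 0.49 with a standard error of 0.07, and MVD fell by 0.51 with a standard error of 0.07. The estimates are those of the fit with all libraries, and only the error differs. With 1 siUXT library left, 1 residual degree of freedom remains, from the 2 siEZH1 minus NC differences. The eBayes step draws that error towards the spread typical of other loci, so it is not set by their agreement alone. TM7SF2, with differences of -0.43 and -0.44, had a standard error of 0.07 there. PMVK, with the unlike differences of -0.19 and -0.80, had 0.14 and was called all the same. The siEZH1 differences of all loci also moved with the genomic length of a gene: over 11442 loci Spearman's rho was 0.26 (PBS) and 0.27 (TNF). Across the 31 members that correlation was 0.03 and 0.21, and its part in these differences was not tested.

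**Figure D3:**
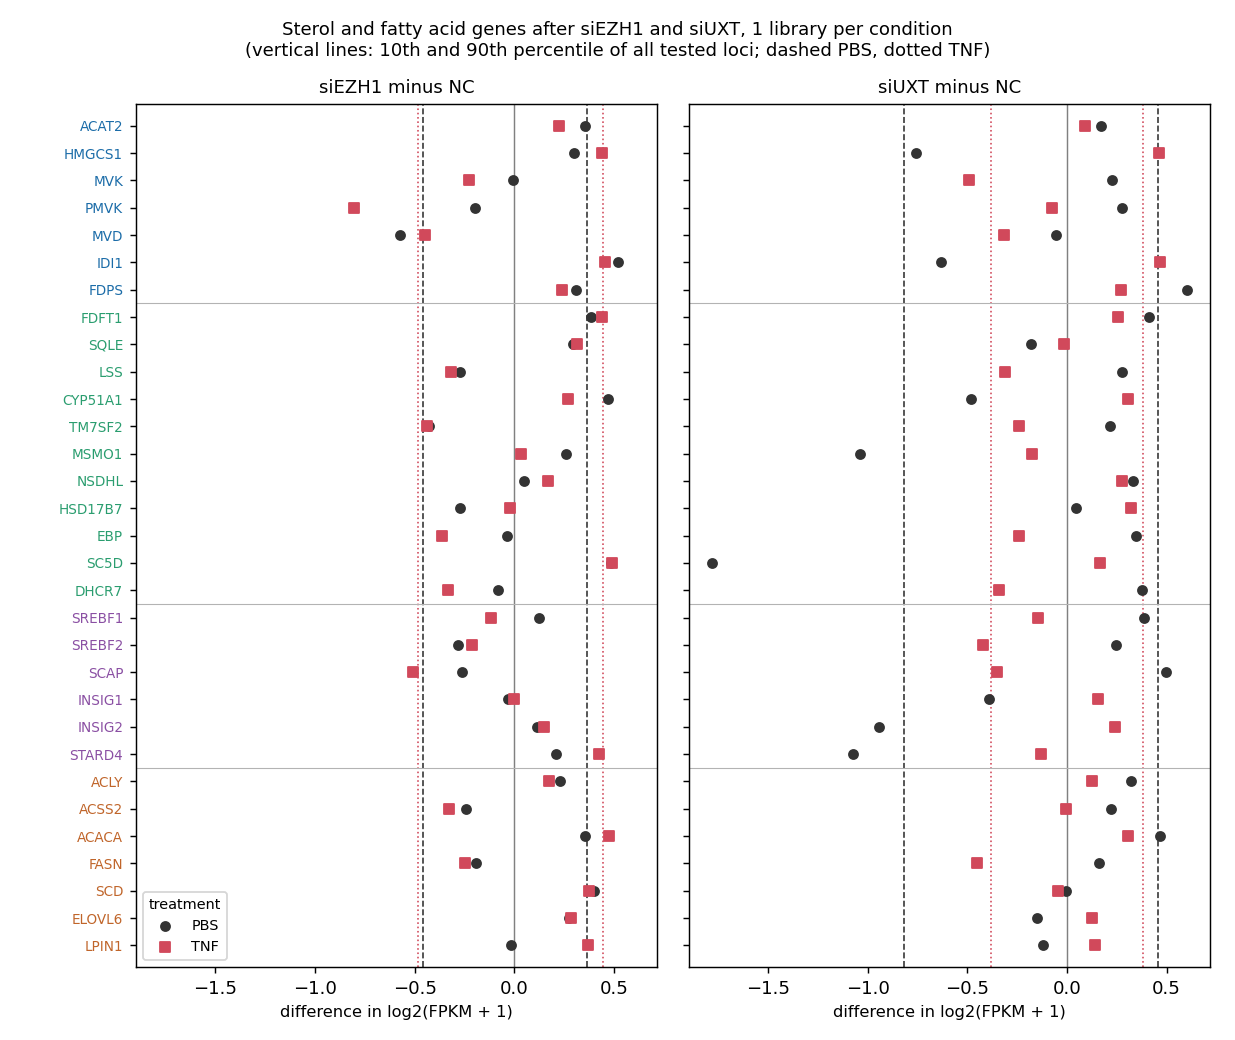
Difference from NC in log2(FPKM + 1) (horizontal axis) for each of the 31 genes after siEZH1 (left) and siUXT (right), with 1 point for PBS and 1 for TNF. The PBS and TNF points of most genes lie close together after siEZH1, with PMVK (-0.19 and -0.80) the widest apart, and they lie far apart after siUXT for SC5D (-1.78 and 0.17), HMGCS1, INSIG2, IDI1, STARD4 and MSMO1. The vertical lines mark the 10th and 90th percentile of all tested loci.

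After siUXT, 6 of the 31 genes were at least 1.5-fold lower under PBS, and none under TNF. They were HMGCS1, IDI1, MSMO1, SC5D, INSIG2 and STARD4. As a share this is 19.4%, against 16.4% of all loci in the same pair of libraries, so the count is near the background of that library. FDPS alone was at least 1.5-fold higher under PBS (4.11% of all loci), and 0 of 31 were 1.5-fold apart under TNF, where 3.12% of all loci were higher and 3.06% lower. None was at least 25% higher (2.79% of all loci) or at least 20% lower (1.62%) under both treatments.

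SC5D differed most. Under PBS, siUXT cells had 3.19 FPKM and NC cells 13.4, a ratio of 0.238, and under TNF they had 13.8 and 12.2. MSMO1, which acts earlier on the same sterols, was at 18.9 in siUXT PBS and 34.5 in siUXT TNF, against 39.9 and 39.1 in NC. STARD4 was at 5.27 and 10.2, against 12.2 and 11.3. For all 3 genes siUXT PBS was the lowest of the 6 libraries, and siUXT TNF was 1.13, 0.881 and 0.905 times NC TNF for SC5D, MSMO1 and STARD4.

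HMGCS1 and IDI1, an early and a late step of the mevalonate arm, crossed over: HMGCS1 was 0.569 of NC under PBS and 1.40 times NC under TNF, and IDI1 0.629 and 1.40 times. CYP51A1 was at 20.6 and 33.7 FPKM in siUXT PBS and siUXT TNF, and differed from NC by -0.48 and 0.31. INSIG2 was at 3.93 and 10.8 in siUXT, against 8.50 and 9.01 in NC. INSIG1 was at 19.5 and 28.3, against 25.8 and 25.3. Both INSIG genes thus had their lowest and highest values in the 2 siUXT libraries.

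Other members went in the opposite order. SCAP was at 29.3 FPKM in siUXT PBS and 20.2 in siUXT TNF, 1.43 and 0.776 times NC. DHCR7, the last reductase before cholesterol, was at 62.9 and 47.5, 1.31 and 0.784 times NC. SREBF1 and SREBF2 were 1.32 and 1.19 times NC under PBS and 0.903 and 0.742 under TNF. At least 25% higher under 1 treatment and at least 20% lower under the other were 4 of 31 (HMGCS1, IDI1, DHCR7 and SCAP), or 12.9%, against 7.79% of all loci.

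Higher under both treatments were 7 of 31 (22.6%, against 22.8% of all loci), and lower under both were 5 (MVD, SQLE, MSMO1, STARD4 and SCD; 16.1%, against 17.1%), shares near the background. Of the 7, FDPS was at 74.5 and 81.3 FPKM in NC, 92.8 and 96.3 in siEZH1, and 114 and 98.3 in siUXT, and both siUXT values were the highest of the 6. FDFT1 was 1.33 and 1.20 times NC, ACACA was above NC by 0.47 and 0.31 on the log2 scale, and NSDHL, a sterol dehydrogenase, was 1.27 and 1.22 times NC. SCD was 0.997 and 0.968 of NC.

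Limma over all 6 libraries called 0 of 31 for siUXT (0.0422% of all loci were called). FDPS alone had an unadjusted p under 0.05 (0.037), a limit that 3.65% of all loci passed, and the smallest Benjamini-Hochberg adjusted p in limma was 0.91. Without siUXT PBS, 0 of 31 were called (1.09% of all loci were), with a smallest Benjamini-Hochberg adjusted p of 0.058 in limma, and the estimate then came from siUXT TNF alone. In that fit 13 of 31 had an unadjusted p under 0.05, against 23.4% of all loci. Without siUXT TNF, the estimate came from siUXT PBS alone, and limma called 6 of 31 higher (19.4%, against 12.0% of all loci) and 8 lower (25.8%, against 18.4%). In both fits the single siUXT library had no spread of its own, and that of NC and siEZH1 was taken to hold for it. The higher ones were FDPS, FDFT1, NSDHL, SCAP, ACACA and ACLY, and the lower ones HMGCS1, IDI1, CYP51A1, MSMO1, SC5D, INSIG1, INSIG2 and STARD4. SC5D fell by 1.78 in that fit, with a standard error of 0.12 (limma, Benjamini-Hochberg adjusted p = 6.0e-04). Those calls therefore describe the library labelled siUXT PBS. EPCAM was also lowest there, at 58.7 FPKM against 102 to 154 in the other libraries, while KRT8, KRT18 and KRT19 were at their highest. Gene span had a Spearman correlation of -0.22 with the siUXT PBS difference across all loci and of 0.26 across the 31 members. The part of these in the differences was not tested.

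**Figure D4:**
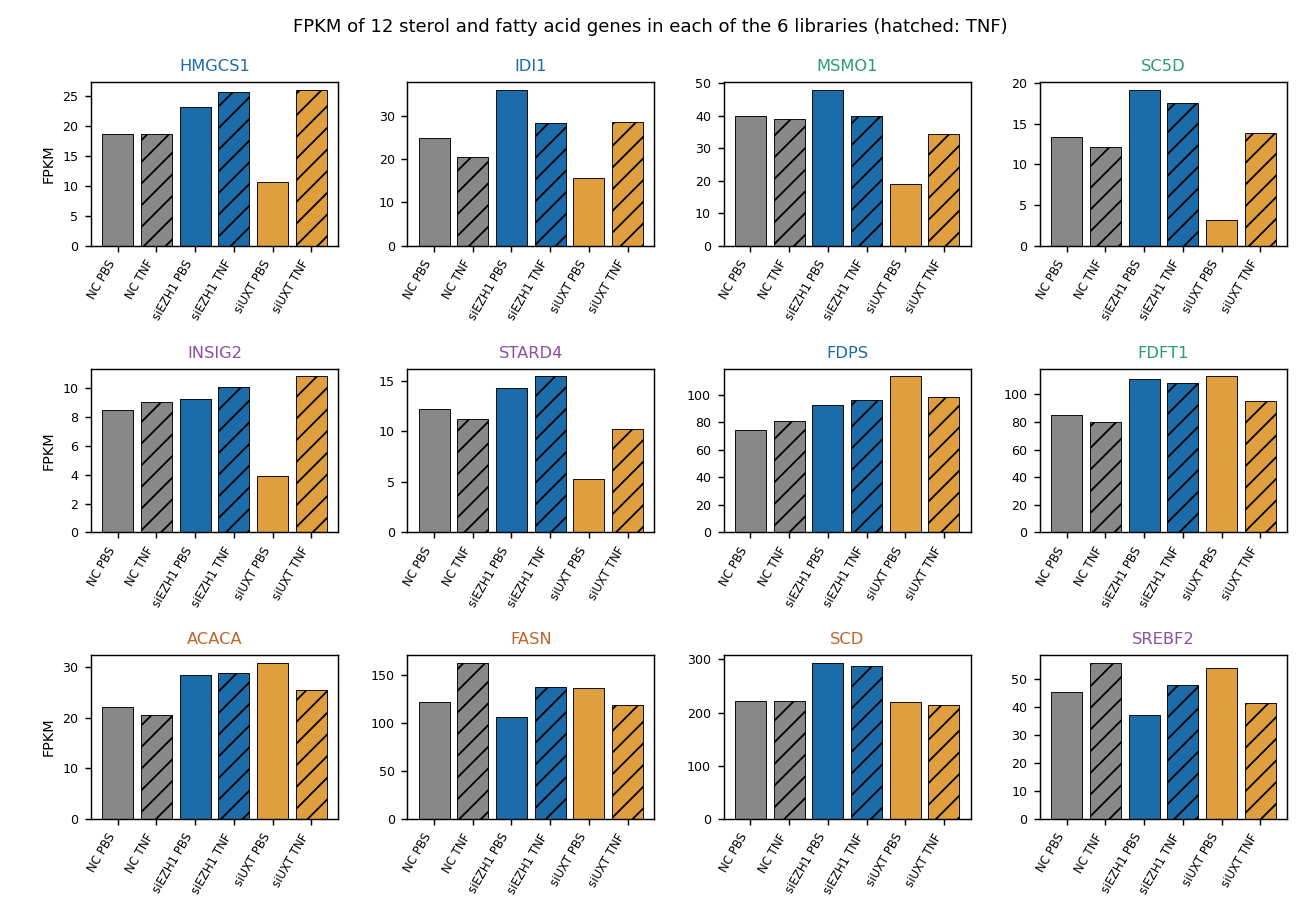
FPKM of 12 of the genes (vertical axes start at 0) in each library, grey for NC, blue for siEZH1 and orange for siUXT, hatched for TNF. The siUXT PBS bar is the lowest of the 6 for HMGCS1, IDI1, MSMO1, SC5D, INSIG2 and STARD4 and the highest for FDPS, FDFT1 and ACACA, while SCD is highest in the 2 siEZH1 libraries.

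Related genes outside the 31 were counted from 3 lists. In none was a locus called by limma over all 6 libraries for TNF, siEZH1 or siUXT. At an unadjusted p under 0.05 there were 0 for TNF, 4 for siEZH1 and 6 for siUXT among the 67 genes of the 3 lists, where 3.96%, 8.21% and 3.65% of all loci passed that limit. Of 18 other tested sterol genes, mostly of transport and sensing (such as NPC1, which moves cholesterol out of lysosomes), 0 were at least 25% higher and 2 at least 20% lower under both treatments after siEZH1. Of 29 genes of fatty acid elongation, desaturation, activation and esterification, 5 were higher and 5 lower. Of 20 fatty acid oxidation genes, 1 was higher and 1 lower. By the same limits 7.40% of all loci were higher and 11.3% lower, and of the 31 members 5 were higher and 2 lower. After siUXT the 3 lists had 0, 1 and 1 genes higher and 1 each lower, where 2.79% of all loci were higher and 1.62% lower. Chosen after their values were seen, the names are STARD3 and NR1H2 (lower), ME1, ACSL1, ACSL3, GPAM and FABP5 (higher), MID1IP1, FADS2, TECR, AGPAT2 and DGAT1 (lower), ACADM (higher) and PNPLA2 (lower) for siEZH1. For siUXT they are MBTPS2 (lower), ACSL5 (higher), PTPLB (lower), ACADVL (higher) and CPT1A (lower). No gene of these lists reached 1.5-fold the same way in every pair of a comparison. Without siUXT PBS, limma called 1 of 18 higher and 2 lower, 5 of 29 higher and 6 lower, and 2 of 20 higher and 3 lower for siEZH1, where 11.8% of all loci were called higher and 14.7% lower.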

How the data were processed

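Gene expression was measured by poly(A) RNA-seq in 6 HCT116 libraries, 1 for each of 3 transfections by 2 treatments. The authors deposited 1 table per library with an FPKM value per gene symbol, per the file headers and names. Per the submitters' processing notes, FastQC, cutadapt, TopHat2, Bowtie and SICER were used with build hg19. Neither the program behind the FPKM values nor its strand setting or annotation is named in these sources, so overlapping and antisense genes are uncertain.

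Where several symbols held the same 6 values they were counted as 1 locus (17642 above 0), and those averaging 1 FPKM or more were tested (11845). Values were analysed as log2(FPKM + 1), which understates the change of low genes. The test was limma (version 3.58.1, R 4.3.3; lmFit, then eBayes using its trend option, prior degrees of freedom 4.42). The model added transfection and treatment effects and had 2 residual degrees of freedom, and p-values were Benjamini-Hochberg adjusted over all loci, with a threshold of 0.05. It was tested on simulated data. Limits of 25% higher or 20% lower, and of 1.5-fold, were applied on the log2(FPKM + 1) scale, and ratios are of FPKM. A low value (under 0.4 FPKM) is a whole multiple of 1 fragment, and the commonest ratio between libraries, within 2%, gave relative depth. Promoters and gene spans came from RefSeq tables of GRCh38.p14, a build other than that of the files, and no coordinates were converted. Python 3.11.15 with numpy 2.4.6, pandas 2.3.3 and matplotlib 3.10.9 did the rest.

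The members and lists were chosen with earlier results of these data known. All 31 members are named. Values in every library are given for members past the 25% or 20% limit in all pairs of a comparison, or 1.5-fold in 1 pair, and for SREBF1, SREBF2, INSIG1, INSIG2, HMGCS1, SQLE, FASN and SCD. Genes of the other lists were to be named if called, or past 1.5-fold in all pairs. Alternatives were a pseudocount of 0.1, no filter, size factors, eBayes without trend, and each library left out.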

Additional observations from a re-analysis of the deposited data

Results flagged for a closer look

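For 4 members the siUXT difference from NC had opposite directions under PBS and TNF, at least 25% higher under one and at least 20% lower under the other. These are 12.9% of the members, against 7.79% of all loci. With 1 library per condition, that difference was not tested. HMGCS1 was at -0.76 under PBS and 0.46 under TNF on the log2(FPKM + 1) scale. IDI1 was at -0.64 and 0.47. DHCR7 was at 0.38 and -0.34, and SCAP at 0.50 and -0.35. The PBS value of each gene rests on the siUXT PBS library, which stood apart from the others over all loci, and the TNF value on siUXT TNF.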

How the results depend on the processing

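No fit with a replicate block was run, since the labels give no replicate numbers and each condition has 1 library. The additive model itself compares TNF with PBS within a transfection and each knockdown with NC within a treatment. With other settings, 0 members were called for TNF, siEZH1 or siUXT under a pseudocount of 0.1 FPKM, size factors, no filter, or eBayes with no trend. Over all loci, the TNF calls went from 48 higher to 23 with no filter, and from 1 lower to 0 under each of these 4 settings. The siUXT calls went from 3 higher and 2 lower to 0 and 0 with a pseudocount of 0.1 FPKM. The siEZH1 calls stayed at 0 higher and 2 lower. Leaving out each library in turn, TNF calls over all loci ranged from 100 to 294 higher and 24 to 35 lower, with 0 to 1 members higher and a member median of -0.02 to 0.04. For siEZH1 they ranged from 14 to 1396 higher and 24 to 1750 lower, with 0 to 11 members higher, 0 to 7 lower, and a member median of 0.0044 to 0.14. For siUXT they ranged from 21 to 1425 higher and 25 to 2179 lower, with 0 to 6 members higher, 0 to 8 lower, and a member median of -0.047 to 0.14. The cause of these shifts was not tested beyond the fewer libraries in each fit, which leave 1 residual degree of freedom. The read number behind each FPKM value is unknown, so counting error could not be given.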
